A study of Sus scrofa with 24 samples.

Results

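HK1, GPI, PFKL, ENO2 and LDHA are enzymes of glycolysis, and their mRNA was followed here in porcine aortic valve leaflets kept static or cyclically stretched in culture. Each enzyme was taken as every probe set whose platform annotation names it and no other gene, which gave 5 probe sets, 1 per enzyme, of 23999 tested. The annotation names exactly 1 symbol for 10069 of these probe sets, covering 6765 symbols. The 5 were fixed by name, but earlier results of these data were known when they were chosen. The choice may therefore not be independent of their values.

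The tissue came from domestic pigs of 12 to 24 months, obtained at an abattoir, and a piece of 15 by 10 mm was cut from the middle of each cusp. Pieces were assigned at random to 4 groups of 6 and kept for 24 h at 37 °C in DMEM with 10% serum, ascorbic acid and antibiotics. The static group without agents lay in this medium, and a second static group lay in the same medium with 5HT (serotonin) plus Fluox. The stretched group without agents was sutured with loops at its ends and hung in a tensile bioreactor, and the last group was stretched in the same way with 5HT plus Fluox. Doses of the agents are not given in the sources used here. The static pieces carried no sutures, so stretch and mounting in the bioreactor cannot be told apart. Cusps of 1 valve could enter different groups, so arrays may share an animal, and the p-values below measure the spread between samples. Each piece gave 1 Affymetrix porcine array, read as log2 values by the authors' GCRMA summaries. Arrays give no counts, and their number, 6 per group, limits the precision. Stretched arrays stood apart from static ones in their RNA quality: the difference between the 3′ and 5′ ends of control transcripts was 0.57 to 0.97 log2 in static and 0.98 to 4.66 in stretched arrays, and the stretch results of the enzymes are therefore given with and without it in the fit.

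Glycolysis splits glucose into pyruvate and yields ATP without oxygen, and lactate dehydrogenase then turns pyruvate into lactate while restoring the NAD+ that the pathway uses. Hypoxia-inducible factor is a well-known activator of many genes of this pathway. Heart valve leaflets are thin and have few vessels, so that their cells take up oxygen and glucose largely by diffusion.

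All 5 enzymes fell in stretched tissue, both without agents and with 5HT plus Fluox. In each case every stretched array lay below every static array of the same medium. The fall without agents ran from 4.44-fold for PFKL to 10.0-fold for ENO2, with a median of 7.22-fold. With 5HT plus Fluox it ran from 2.34-fold for PFKL to 9.87-fold for HK1, with a median of 6.18-fold.

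Large parts of the array moved with stretch, so these counts are read against that background. A probe set was called where the adjusted p of limma (Benjamini-Hochberg over all 23999) was under 0.05. Without agents 23.1% of all probe sets were called lower and 29.4% higher, against 5 and 0 of the 5 enzymes. With 5HT plus Fluox the shares were 23.9% lower and 28.3% higher, again against 5 and 0 of 5. As earlier results were known when the 5 were chosen, this contrast is only descriptive. Counts of markers and gene lists below stand against these same shares where the fit lacks the 3′ to 5′ difference. The fit with it called 12.7% and 8.38% of all probe sets lower, and 5176 and 3721 of 23999 in either direction. The lists take the probe set of highest mean per symbol, and brighter probe sets were called lower more often, as follows. Among probe sets with a mean log2 value of at least 6, which holds for 4 of the enzymes but not for PFKL, 36.2% were called lower without agents and 41.6% with them. Complete separation, with every stretched array below every static one, was rarer and occurred in 8.36% and 18.1% of all probe sets. The median log2 change of all probe sets was 0.08 and 0.07, while that of the 5 enzymes was -2.85 and -2.63. The 2 stretch comparisons use different arrays, but each shares its arrays with the comparisons of the agents.

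HK1 is the hexokinase of most tissues and traps glucose in the cell by phosphorylating it. In static pieces without agents its log2 value ranged from 9.87 to 10.55 with a median of 10.19, and in stretched pieces from 6.99 to 7.86 with a median of 7.24. The groups were separated by a gap of 2.02, and the means were 10.20 ± 0.27 (SD, n = 6) and 7.35 ± 0.34 (SD, n = 6). The fall was 7.22-fold, a log2 change of -2.85 (SE 0.17, limma adjusted p = 3.67e-10), and by p-value it ranked number 10 of all 23999 probe sets. With 5HT plus Fluox, static pieces ranged from 10.12 to 10.58 with a median of 10.41, and stretched pieces from 6.60 to 7.75 with a median of 7.03. Again no stretched piece came near a static one. HK1 changed here by -3.30 log2 (SE 0.17, limma adjusted p = 4.85e-11), which was the fourth smallest p-value of this comparison.

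GPI interconverts glucose 6-phosphate and fructose 6-phosphate, the second step of the pathway. Without agents it ranged from 11.14 to 11.96 with a median of 11.46 in static pieces, and from 8.08 to 9.22 with a median of 8.52 in stretched ones. This was a 7.60-fold fall, with a log2 change of -2.93 (SE 0.25, limma adjusted p = 3.6e-08). With the agents the static range was 11.22 to 11.70 around a median of 11.36. The stretched range there was 7.50 to 9.59 around a median of 8.81, the widest spread of GPI in any group (SD 0.70, n = 6). The groups stayed apart by 1.63, and the log2 change was -2.63 (SE 0.25, limma adjusted p = 9.83e-08).

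PFKL is the liver-type subunit of phosphofructokinase, the enzyme of the committed step. Its probe set was the dimmest of the 5 relative to the rest of its arrays: in stretched tissue without agents between 35.1% and 41.2% of all probe sets had a lower value. The deposited values carry no detection call, so whether PFKL was above background in stretched tissue was not determined. Without agents PFKL ranged from 5.23 to 6.61 with a median of 5.59 in static pieces, and from 3.50 to 3.80 with a median of 3.70 in stretched ones. The stretched values were packed closely (SD 0.10, n = 6) below a wide static group (SD 0.63, n = 6). The log2 change was -2.15 (SE 0.23, limma adjusted p = 5.73e-07). With 5HT plus Fluox the static range was 4.47 to 5.82 around a median of 4.75, and the stretched range was 3.50 to 3.74 around a median of 3.70. Here the log2 change was -1.22 (SE 0.23, limma adjusted p = 0.000256), with a gap of 0.73 between the groups, the narrowest of all.

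ENO2 is enolase 2, the form best known from neurons, which makes phosphoenolpyruvate. Its static values without agents ranged from 10.94 to 11.78 with a median of 11.23, and its stretched values from 7.33 to 8.55 with a median of 7.83. The fall of 10.0-fold was the largest of the 5 in this comparison (log2 change -3.33, SE 0.24, limma adjusted p = 5.54e-09). With the agents static pieces ranged from 10.85 to 11.75 with a median of 11.21, and stretched pieces from 7.57 to 9.12 with a median of 8.79. The groups did not overlap, and the log2 change was -2.57 (SE 0.24, limma adjusted p = 9.7e-08).

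LDHA is the subunit of lactate dehydrogenase that predominates in muscle and other strongly glycolytic tissue. Without agents it ranged from 13.26 to 14.13 with a median of 13.64 in static pieces, and from 10.22 to 12.01 with a median of 11.30 in stretched ones. The stretched pieces were the more variable (SD 0.73 against 0.28, n = 6 each), yet the highest of them lay 1.26 below the lowest static piece. The log2 change was -2.56 (SE 0.26, limma adjusted p = 2.63e-07), a fall of 5.90-fold. With 5HT plus Fluox the static range was 13.54 to 13.81 around a median of 13.69, and the stretched range 9.80 to 11.04 around a median of 10.64. This 8.62-fold fall left the widest gap of the 5 enzymes, 2.49 (log2 change -3.11, SE 0.26, limma adjusted p = 1.81e-08).

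**Figure D1:**
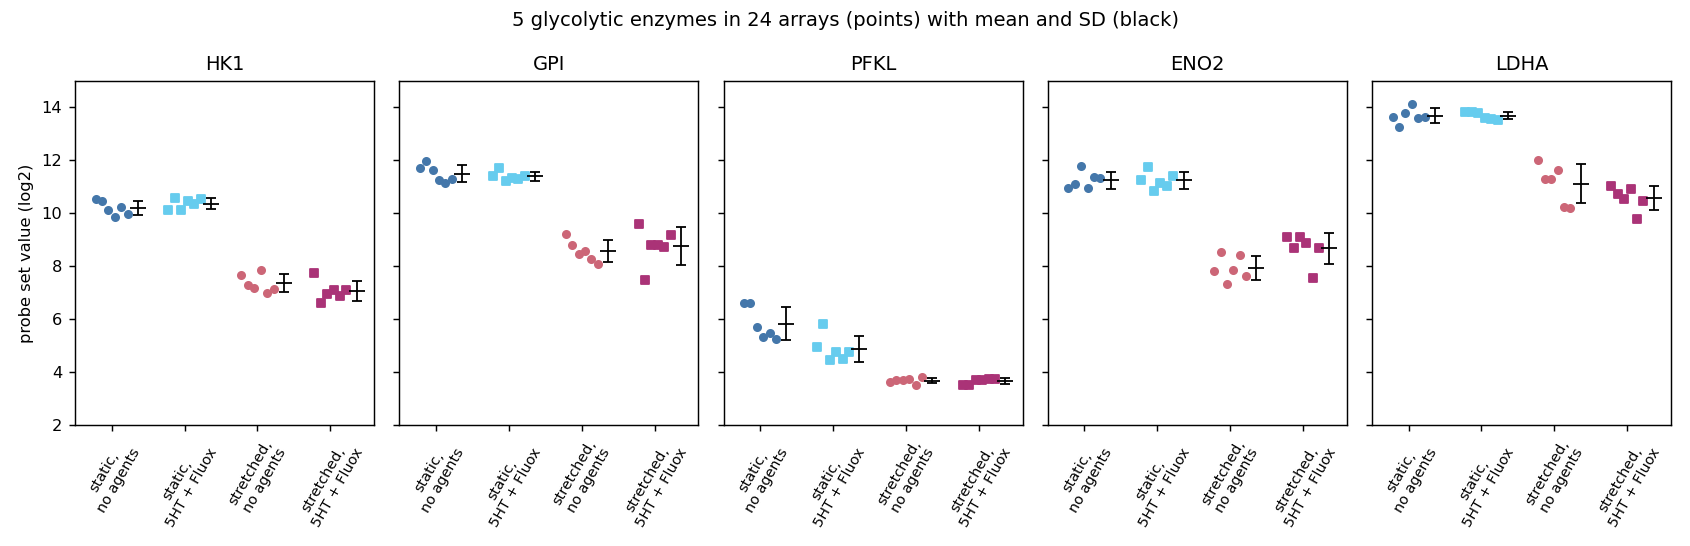
Log2 probe set value (vertical axis) of each enzyme in the 24 arrays, by group (horizontal axis), with 1 point per array and the mean ± SD of 6 arrays in black. In every panel the stretched arrays lie below all static arrays of the same medium, and the PFKL values of stretched tissue lie between 3.50 and 3.80.

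The authors' deposited table gives the same direction for every enzyme, with signed linear fold changes without agents of -7.22 for HK1, -7.60 for GPI, -4.44 for PFKL, -10.0 for ENO2 and -5.90 for LDHA. In the authors' deposited table the largest step-up adjusted p of the 5 was 1.44e-06 for PFKL without agents and 0.000409 for PFKL with 5HT plus Fluox.

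For the agents themselves no enzyme passed the test. In static tissue 1 probe set of all (0.00417%) was called, and none of the 5. HK1 differed by 0.17 (95% interval -0.20 to 0.53), GPI by -0.10 (-0.62 to 0.42), ENO2 by -0.010 (-0.52 to 0.50) and LDHA by 0.0095 (-0.52 to 0.54), all in log2 units with the static pieces without agents as the reference. True changes of a size inside these intervals were not excluded with 6 pieces per group, and larger ones could also miss the adjusted threshold. PFKL was 1.93-fold lower with the agents, with 5 of 6 pieces below all those without. Its log2 difference of -0.95 (95% interval -1.43 to -0.47) had an unadjusted p of 0.00047 but an adjusted p of 0.868 in limma. By unadjusted p it ranked number 13 of all probe sets, among which 422 (1.76%) were under 0.05.

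In stretched tissue 0.0583% of all probe sets were called for the agents, and again none of the 5. ENO2 was 0.75 log2 higher with 5HT plus Fluox (95% interval 0.24 to 1.26, unadjusted p = 0.00587, limma adjusted p = 0.156), with 5 of 6 pieces above all those without agents. LDHA changed by -0.54 (95% interval -1.07 to -0.0027, unadjusted p = 0.049, limma adjusted p = 0.335). HK1 differed by -0.29 (95% interval -0.65 to 0.075), GPI by 0.20 (-0.32 to 0.72) and PFKL by -0.024 (-0.50 to 0.45). ENO2 and LDHA thus pointed in opposite directions, and neither difference passed the test. An unadjusted p under 0.05 was found for 14.8% of all probe sets in this comparison. ENO2 depends on how unequal arrays are treated: it passed with array weights (1.18, limma adjusted p = 0.00563) and without the 3 arrays of the widest 3′ to 5′ difference described below (0.96, limma adjusted p = 0.0483). LDHA also passed with array weights (-0.64, limma adjusted p = 0.0167). Array weights called 3733 of all 23999 probe sets in this comparison and leaving out the 3 arrays called 321, against 14 in the main fit. These passes are therefore not read as particular to the enzymes.

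The interaction asks whether stretch acted differently with the agents than without, and it called 0% of all probe sets and 0 of the 5 in limma, with 1791 probe sets at an unadjusted p under 0.05. For PFKL the change with agents minus that without was 0.93 log2 (95% interval 0.25 to 1.60, unadjusted p = 0.00966, limma adjusted p = 0.632). Its stretched means were 3.67 without and 3.65 with agents, so this value mostly restates its static difference of -0.95. PFKL may be limited by background in stretched tissue. For ENO2 the interaction was 0.76 (95% interval 0.040 to 1.48, unadjusted p = 0.0395, limma adjusted p = 0.66), which passed only with array weights (1.35, limma adjusted p = 0.0128). Array weights called 2174 of all probe sets in the interaction, so this pass is not read as particular to ENO2. HK1 gave -0.45 (95% interval -0.96 to 0.060), GPI 0.30 (-0.44 to 1.03) and LDHA -0.55 (-1.30 to 0.21). The larger falls of HK1 and LDHA with the agents and the smaller ones of GPI, PFKL and ENO2 were therefore not shown to differ from those without them.

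**Figure D2:**
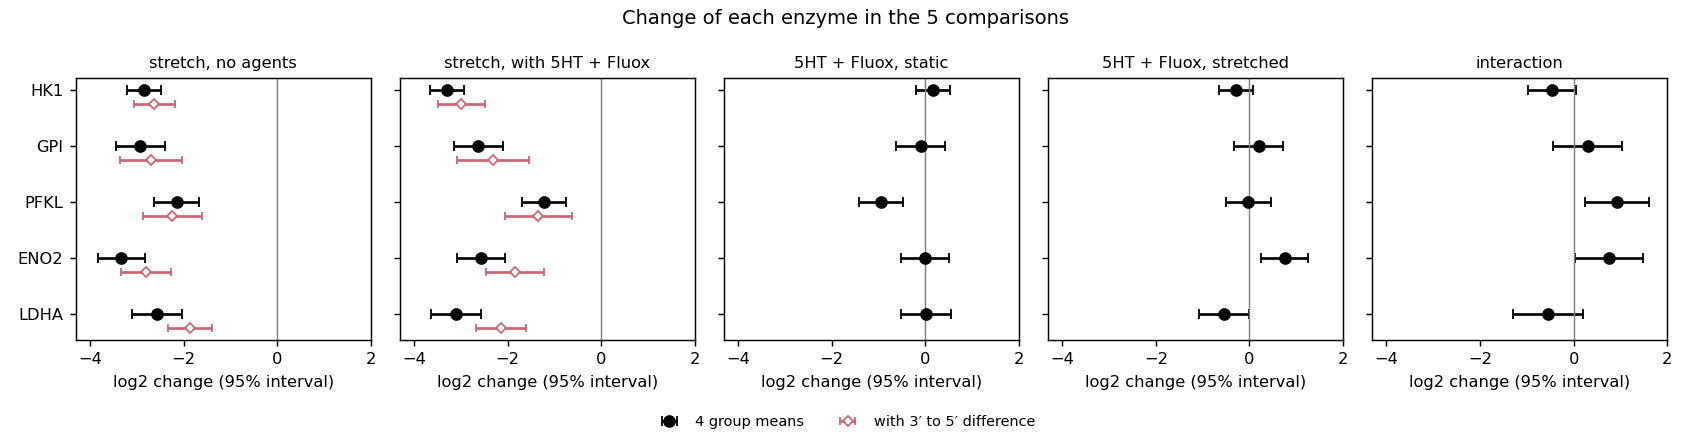
Log2 change of each enzyme with its 95% interval (horizontal axis) in the 5 comparisons, from the 4 group means in black and, for stretch, after adding each array's 3′ to 5′ difference to the fit, in open red diamonds. All intervals of the stretch comparisons lie below 0, and LDHA without agents moves from -2.56 to -1.86 with the covariate.

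RNA quality differed between static and stretched pieces and moved with these results. The array carries control probe sets at the 3′ and 5′ ends of GAPDH and EF1A, and the mean difference between the ends widens where RNA is degraded or copied incompletely. It was 0.57 to 0.91 and 0.70 to 0.97 log2 in the static groups without and with agents, and 0.98 to 3.06 and 1.85 to 4.66 in the stretched ones. The GAPDH control fell without agents by 0.85 log2 at its 3′ end and by 2.31 at its 5′ end, and the EF1A control by 0.022 and by 1.20. The hybridization spike-in bioB was 1.34 and 1.85 higher in stretched tissue, and the 28S ribosomal control 2.07 and 2.69 higher. Where the enzymes' probe sets lie along their transcripts was not used here.

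When each array's 3′ to 5′ difference was added to the fit as a covariate, the 5 enzymes were still called lower in both stretch comparisons, against 12.7% of all probe sets without agents and 8.38% with them in that fit. HK1 then changed by -2.62 and -2.99 log2 without and with agents (limma adjusted p = 8.89e-08 and 2.12e-07), GPI by -2.70 and -2.31, and PFKL by -2.24 and -1.34. LDHA shrank most, from 5.90-fold to 3.64-fold without agents and from 8.62-fold to 4.42-fold with them (limma adjusted p = 6.49e-06 and 1.33e-05). ENO2 shrank from 10.0-fold to 6.96-fold without agents and from 5.93-fold to 3.58-fold with them (limma adjusted p = 3.87e-07 and 0.000254). Leaving out the 3 arrays with a difference over 2.5 moved no enzyme's fold by more than 1.21 times. The stretched piece 1 without agents had a difference of 0.98, the nearest to the static pieces without agents but above all of them. Its EF1A difference of 1.39 lay inside their range of 1.21 to 1.68, while its GAPDH difference of 0.57 lay above theirs, which ended at 0.26, as did its 18S and 28S ribosomal controls. In that piece the difference from the static mean was -2.55 log2 for HK1, -2.28 for GPI, -2.21 for PFKL, -3.45 for ENO2 and -1.67 for LDHA, and each was below every static array without agents. Static and stretched arrays did not overlap in the 3′ to 5′ difference. The fit with it therefore extrapolates and cannot separate RNA quality from stretch. The part of RNA quality in these changes was not tested beyond these values.

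**Figure D3:**
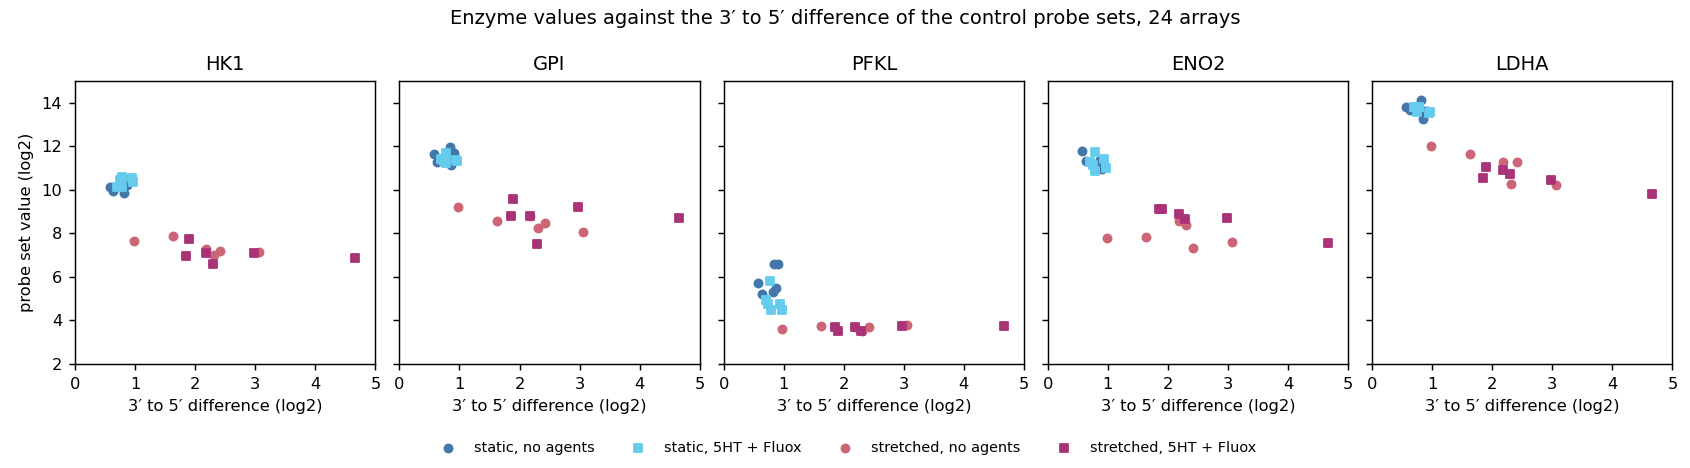
Log2 value of each enzyme (vertical axis) against the array's 3′ to 5′ difference in log2 (horizontal axis), 1 point per array in 4 groups. Static arrays lie between 0.57 and 0.97 on the horizontal axis and stretched arrays from 0.98 to 4.66, and LDHA is highest among stretched arrays in the piece at 0.98.

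Marker genes of several cell types also differed with stretch. In bulk tissue a change in the number of cells of a type cannot be told apart from a change of marker mRNA within cells. Of 10 measured markers of valve interstitial cells, the fibroblasts that fill the leaflet, 7 rose and 2 fell without agents, and 8 rose and 2 fell with them. In the fit with the covariate 5 rose and 2 fell, and 6 rose and 1 fell. Their mean log2 level per array ran from 7.56 to 8.78 in static pieces without agents and from 8.72 to 9.80 in stretched ones. Of 11 endothelial markers 9 fell without agents and 7 with them, and 7 and 5 with the covariate. Their mean log2 level per array was 4.13 to 5.75 in static and 3.20 to 3.45 in stretched pieces without agents, and TIE1, KDR, NOS3, CLDN5 and ESAM had group means under 4 throughout. ECSCR, an endothelial surface protein, changed by -6.47 log2 without agents (limma adjusted p = 3.5e-10) and CDH5, the junction cadherin of endothelium, by -3.90 (limma adjusted p = 5.6e-08). ENG, a TGF-beta co-receptor of endothelium, changed by -3.06 (limma adjusted p = 8.65e-09). Of 10 macrophage and leukocyte markers 1 rose and 4 fell without agents, and 2 rose and 4 fell with them. With the covariate these were 1 rising and 4 falling, and 0 rising and 3 falling. ITGAM, which rose in both comparisons without the covariate, had group means under 4 throughout. Of 6 smooth muscle markers 4 rose in each, and 4 and 5 with the covariate. MYOCD, which rose with agents, had group means under 4 throughout. Of 8 cardiac muscle markers 7 were under 4 in all groups, and 1 rose without agents and 0 with them, and none was called with the covariate. Among 4 markers of erythrocytes and platelets 1 rose and 1 fell without agents and 3 fell with them. None of the 4 was called in either with the covariate. ALAS2, which rose, and ITGA2B, which fell with agents, had group means under 4 throughout. Of 5 markers of neurons and Schwann cells 4 rose without agents and 3 with them (3 and 2 with the covariate), while ENO2 fell. SNAP25 and NEFL of this list had group means under 4 throughout. UCHL1 was not called in either comparison (-0.21 and -0.72). The part of cellular makeup in the change of the enzymes was not tested.

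The other enzymes of the pathway moved mostly the same way, with exceptions among isoenzymes. Of 21 further glycolytic enzymes looked for, 14 were measured. Without agents 10 of the 14 fell and 1 rose, with a median log2 change of -1.10, and with agents 9 fell and 2 rose, with a median of -0.99. With the covariate 8 fell and 1 rose without agents, and 8 fell and 0 rose with them. ALDOC, an aldolase, changed by -3.43 and -4.01 (limma adjusted p = 3.37e-06 and 4.06e-07). The platelet-type phosphofructokinase PFKP changed by -2.62 and -1.90 (limma adjusted p = 6.81e-08 and 2.96e-06). PGK1, the first ATP-yielding enzyme of the pathway, changed by -2.00 and -2.50, and ENO1, the common enolase, by -1.93 and -2.53. TPI1 changed by -1.85 and -2.05, PKM, which makes pyruvate, by -1.13 and -0.89, and GAPDH by -0.87 and -1.08. HK3, a hexokinase of blood cells, changed by -1.83 and -2.28 on its brightest probe set, and its other 2 probe sets were not called. Of 5 GAPDH probe sets 4 were called lower without agents, and a dim second probe set of PKM was called 0.13 higher there. PGK2, ENO3 and PGAM2 had group means under 4 throughout, and of these PGK2 alone was called, 0.26 higher with agents (limma adjusted p = 0.0391).

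Isoenzymes of the same step were compared by the difference of their changes. LDHB, the heart-type subunit, changed by -0.39 and -0.46 log2 (limma adjusted p = 0.0388 and 0.0176), and neither call held with the covariate (limma adjusted p = 0.58 and 0.82). Within arrays, the change of LDHA minus that of LDHB was -2.17 (SE 0.34) without agents and -2.65 (SE 0.19) with them, and the LDHA to LDHB differences of static and stretched arrays did not overlap. LDHC, known as the testis form, rose by 1.51 and 1.16 (limma adjusted p = 0.000446 and 0.0031), and with the covariate only the rise without agents passed (limma adjusted p = 0.0232, against 0.282 with agents). The change of ENO2 minus that of ENO1 was -1.39 (SE 0.42) without agents and -0.039 (SE 0.19) with them, and in both comparisons static and stretched arrays overlapped in this difference. For ENO2 minus ENO3, the dim muscle enolase, it was -3.33 (SE 0.49) and -3.17 (SE 0.31), with no overlap. The change of PFKL minus that of PFKP was 0.47 (SE 0.20) and 0.68 (SE 0.25), with overlap in both. PFKM, the muscle type, was called without agents (-1.07, limma adjusted p = 0.0308) but not with them (-0.26, limma adjusted p = 0.584), nor with the covariate in either.

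**Figure D4:**
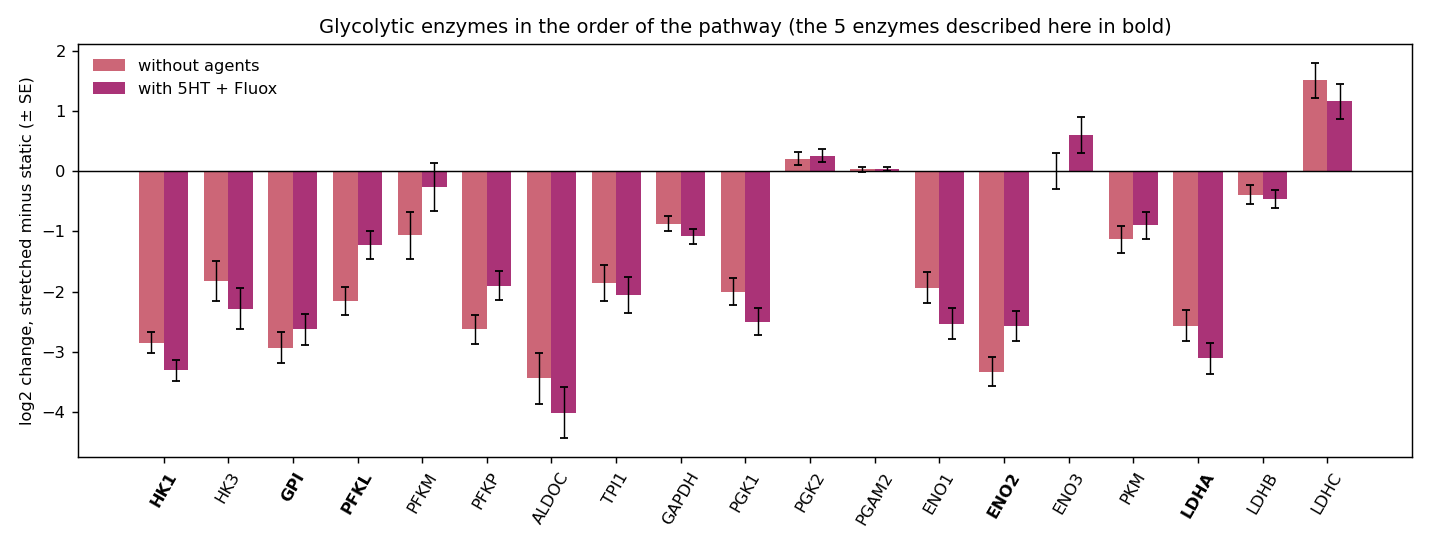
Log2 change, stretched minus static, with its SE (vertical axis) for 19 glycolytic enzymes in the order of the pathway (horizontal axis), without agents and with 5HT plus Fluox. The bars of the 5 enzymes described here reach from -1.22 to -3.33, and LDHC stands above 0.

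Genes around the pathway were counted in the same way. Together with the other enzymes 61 were measured, of which 37 were called lower and 10 higher without agents, and 33 lower and 9 higher with them. Over all probe sets 23.1% and 23.9% were called lower and 29.4% and 28.3% higher. In the fit without the covariate the genes called higher were thus a smaller share here than over all probe sets. With the covariate 29 were lower and 5 higher, and 23 lower and 3 higher. In that fit 12.7% and 8.38% of all probe sets were called lower. It called 5176 and 3721 of all 23999 probe sets in either direction, of which 3053 and 2012 were lower. The smaller share of higher calls is therefore stated only without the covariate, and the 5 and 3 higher are not read as a result. In the agent comparisons and the interaction 0 of the 61 were called in limma, with 0, 12 and 3 at an unadjusted p under 0.05.

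Transporters of glucose and lactate had the lowest median of these lists in both comparisons. Of 5 measured, 4 fell and 1 rose in each comparison, with median log2 changes of -2.31 and -2.45. With the covariate 4 and 3 fell and none rose, with medians of -1.64 and -1.53. SLC2A4, which rose without the covariate, had group means under 4 throughout. SLC16A3, the lactate exporter MCT4, changed by -6.20 and -6.15 (limma adjusted p = 1.56e-21 and 1.91e-21), to mean log2 levels of 2.59 and 2.58 in stretched tissue. Those levels lie between the lowest and highest 25th percentile of an array, 2.52 and 2.83, and without a detection call the size of this fall is uncertain. SLC2A1, the glucose transporter GLUT1, changed by -4.64 and -5.18 (limma adjusted p = 6.96e-08 and 1.53e-08), and by -3.37 and -3.43 with the covariate. SLC2A3, or GLUT3, changed by -2.31 and -2.45. Of 6 genes of glycogen metabolism 5 fell and 1 rose without agents, and 4 fell and 1 rose with them, and with the covariate 4 fell and 1 rose in each. UGP2, which makes the glucose donor of glycogen synthesis, changed by -3.25 and -2.57 (limma adjusted p = 4.77e-09 and 4.84e-08). PGM1, which links glycogen to glycolysis, changed by -2.29 and -2.38. GYS1, the muscle-type glycogen synthase, changed by -1.94 and -2.50 on its brightest probe set. The other GYS1 probe sets were dim and not called without agents (-0.51 and -0.10, limma adjusted p = 0.059 and 0.263).

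Beyond pyruvate and in the reverse pathway the directions were mixed. FBP1, the gluconeogenic counterpart of phosphofructokinase, rose by 2.79 and 3.49 (limma adjusted p = 0.000191 and 1.4e-05), within a list of 5 of which 3 rose and 2 fell without agents and 2 rose and 1 fell with them. The list's median was 0.16 and 0.13, and with the covariate 2 rose and 1 fell, and 1 rose and 1 fell. PCK1, which rose without agents in the fit lacking the covariate, had group means under 4 throughout. PCK2 changed by -2.77 and -3.13 on its brightest probe set, and its other probe sets disagreed in size or sign. Of 5 pyruvate dehydrogenase genes 4 fell without agents and 2 with them, with medians of -0.79 and -0.74. With the covariate 2 fell and 1 rose without agents, and 1 fell with them. PDK4, the kinase that restrains pyruvate dehydrogenase, rose by 2.51 and 3.47 (limma adjusted p = 0.00283 and 0.000149), and neither rise passed with the covariate (limma adjusted p = 0.218 and 0.183). PFKFB4, which sets the level of an activator of phosphofructokinase, changed by -1.51 and -1.46. These were 2 of 3 measured regulators of flux, of which 1 rose and 1 fell in each comparison, with medians of -0.35 and 0.42, and with the covariate only 1 fall in each was called. Of 5 genes of the pentose phosphate branch 2 fell in each comparison, 1 in each with the covariate, and the list's median turned from -1.02 and -0.997 to 0.35 and 0.32 with the covariate.

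Of 15 measured genes of hypoxia sensing and response, 9 fell and 1 rose without agents, and 10 fell and 1 rose with them, with medians of -1.28 and -1.31. With the covariate 8 and 4 fell, and the medians were -0.71 and -0.52. CA9, which rose in both comparisons without the covariate, had group means under 4 throughout. HIF1A, the oxygen-regulated subunit of hypoxia-inducible factor, changed by -1.11 and -1.10 on its brightest probe set (limma adjusted p = 0.000152 and 0.000137), and all 4 of its probe sets fell. With the covariate the second was no longer called (limma adjusted p = 0.145). EGLN1, the oxygen sensor that marks it for decay, changed by -1.84 and -1.90. BNIP3L, a mitophagy receptor, changed by -1.59 and -1.77 (limma adjusted p = 5.68e-06 and 1.2e-06). KDM3A, a histone demethylase, changed by -1.82 and -2.12 on its brighter probe set. A dim second probe set of KDM3A was not called without agents (0.11, limma adjusted p = 0.139). ANKRD37, a hypoxia-induced gene, changed by -2.62 and -2.05, the latter not called with the covariate (limma adjusted p = 0.178). Of 3 measured regulators of other kinds 2 rose without agents, SP1 and PPARGC1A, and 1 with them, SP1. Both had group means under 4 throughout. With the covariate 0 and 1 rose, the 1 being MYC with agents (1.59, limma adjusted p = 0.0118). In the fit without the covariate MYC changed by -0.33 without agents (limma adjusted p = 0.495).

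The patterns of the 5 enzymes over the 24 arrays were alike to different degrees. These patterns include the falls with stretch, and likeness between pieces within a group was not measured. After each enzyme was centred on its own mean, the root mean square difference was smallest between HK1 and GPI, 0.37 log2, and largest between PFKL and ENO2, 0.93. The change of HK1 minus that of GPI was 0.075 (SE 0.16) without agents and -0.68 (SE 0.18) with them, with overlap of arrays in both. With agents, the change of HK1 minus that of PFKL was -2.08 (SE 0.25). That of PFKL minus ENO2 was 1.34 (SE 0.28), and that of PFKL minus LDHA was 1.88 (SE 0.28). For each the static and stretched arrays did not overlap in this difference. Each involves PFKL, which may be limited by background in stretched tissue, so the size of its fall is uncertain. The nearest patterns over the 24 arrays were also sought among other genes with 1 symbol, leaving out the 5 enzymes. The nearest to HK1 was that of ABHD4 (0.40) and to GPI that of CASP2 (0.38), both farther than HK1 and GPI from each other. For PFKL it was DNAJC5 (0.33), for ENO2 PBX2 (0.46) and for LDHA ROGDI (0.35), each as a root mean square difference in log2. Of these other genes, the endothelial marker ENG was among the 3 nearest to HK1 (0.42) and to GPI (0.38). PFKP was also among the 3 nearest to GPI (0.38), and ANKRD37 among the 3 nearest to ENO2 (0.54).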

How the data were processed

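The deposited values are log2 probe set summaries of 24 arrays that the authors made with Partek and GCRMA, per the submitters' processing notes, without versions. They were used as deposited. The authors also deposited a table of p-values and signed linear fold changes, deposited as a score that is negative for lower values, which was only set beside the results.

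Of 24123 probe sets 124 controls were left out. Platform annotation gave 1 symbol to 10069, several to 198 and none to 13732. The 4 group means were fitted with limma 3.58.1 (R 4.3.3) and eBayes, two-sided, with Benjamini-Hochberg adjustment over 23999 probe sets and a threshold of 0.05. The fit was tested on simulated data. Enzymes and gene lists were chosen with earlier results of these data known. All 5 enzymes were described in every comparison, and for each list the probe set of highest mean per symbol was counted and up to 3 members of smallest p were named. Further glycolytic enzymes, PDK4, PFKFB4, HIF1A and MYC were named for their role, after their values were seen. Replicate numbers were not taken to pair arrays: 17 of 36 same-numbered pairs correlated above 0.1, among them 5 of 6 between the static groups and 4 of 6 between the stretched ones, where every pair was required. Alternatives were another scaling, filters, variance models, array weights, a replicate block, the 3′ to 5′ difference, and each array left out. The EF1A difference alone was added after seeing the data.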

Additional observations from a re-analysis of the deposited data

Results flagged for a closer look

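Of 20 sets of 6 arrays, 5 enzymes in 4 groups, 2 held an array far from the others, where chance flags about 1 in 20. PFKL in static tissue with 5HT plus Fluox was 5.82 in replicate 2, with the next array at 4.95, a gap of 64.7% of the group's range. ENO2 in stretched tissue with 5HT plus Fluox was 7.57 in replicate 5, with the next array at 8.68, a gap of 71.5% of the range. The 3′ to 5′ difference of this second array was 4.66, the widest of the 24.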

How the results depend on the processing

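In both stretch comparisons 5 of 5 enzymes were called lower under every alternative run, with a replicate block too, and 340 of 340 single values kept direction and call. Leaving out each array in turn gave log2 changes without agents of -2.95 to -2.78 for HK1, -3.06 to -2.83 for GPI, -2.27 to -1.99 for PFKL, -3.45 to -3.21 for ENO2 and -2.74 to -2.38 for LDHA. For the agents and the interaction 501 of 505 single values kept theirs. In stretched tissue array weights called 2 enzymes and the arrays of 3′ to 5′ difference over 2.5 left out called 1, and array weights called 1 in the interaction, all given in the report. The replicate numbers were not taken to pair the arrays (7 of 24 arrays lay closest to one of their own number), and the replicate block moved calls over all probe sets from 12600 to 12899 and from 12527 to 12946, and from 14 to 1 for the agents in stretched tissue. The 3′ to 5′ covariate left 5176 and 3721 calls, and the EF1A difference alone, chosen after seeing the data, 5790 and 3990, with LDHA at -1.93 and -2.20. Leaving out probe sets of mean under 4, fewer being tested, left 8121 without agents. For the agents in stretched tissue other counts were 0 with only the 2 groups, 3 without dim probe sets, 9 with trend and robust variances, 31 with quantile normalization, 26 when centred, 3733 with array weights, 5 with the covariate and 321 without the wide arrays. In static tissue the 1 call was lost in 4 of these settings, and the interaction rose from 0 to 2174 with array weights and to 2 without the wide arrays. The cause was not tested. Centring on brighter probe sets raised the median of all by 0.235 and 0.252, with splits of 11514 higher to 4409 lower and 12231 to 4722 against 7067 to 5533 and 6796 to 5731; the enzymes then lay at -3.09 to -1.92 and -3.05 to -0.97. Without detection calls, PFKL in stretched tissue may be limited by background.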
